A study of Mus musculus with 54 samples.

Results

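Among 19 tumours grown in old mice, 2 carried large amounts of lung tissue transcripts, and these arrays are described here against the other 17. The tumours were LLC, the Lewis lung carcinoma, a transplantable mouse tumour that arose in the lung of a C57BL/6 mouse. Old arrays 95 and 96 were chosen by the detection p of 1 probe of Sftpc, the surfactant protein C of alveolar type 2 cells: it was 0 and 0 in these arrays and 0.395 to 0.967 in the other 17 old arrays. The array nearest the threshold of 0.01 from outside thus had a p of 0.395. The members are 2 of 19 old arrays and of 54 in all. Each array held total RNA of 1 tumour from a male C57BL/6 mouse, hybridised to an Illumina Mouse WG-6 bead array. Hosts were old (736 days, 19 arrays), adolescent (68 days, 18 arrays), young adult (143 days, 10 arrays) or middle-aged (551 days, 7 arrays), and no other treatment is named in the labels. The labels give no site of tumour growth, and they hold no array numbers.

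Mouse lung is built from a few well-known cell types. Alveolar type 2 cells make surfactant, the lipid and protein film that keeps air spaces open, and flat alveolar type 1 cells form the surface for gas exchange. Club cells of the bronchioles secrete Scgb1a1 and hold detoxifying enzymes such as Cyp2f2, and ciliated cells move mucus along the airway. A dense bed of capillary endothelium, lung fibroblasts, macrophages and other leukocytes completes the organ. LLC cells, in contrast, are fast-dividing and of mesenchymal form.

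The regions upstream of 5 genes that stand for these epithelial types are shown because their transcripts separate the 2 arrays from all others. They are the 250 bases before the start site from RefSeq (GRCm38.p6), read 5′ to 3′ on the plus strand, which is the strand of each of these genes. Capitals mark CAAGTG or its reverse complement CACTTG, the letters of an NKX homeodomain site, a family that includes the lung factor Nkx2-1. Of 32851 such windows in the reference table, 11.6% hold this motif on either strand. A forkhead motif, TGTTTAC or GTAAACA, was searched too, occurs in 3.2% of windows and has no match in these 5. A match here is a description of the letters. Sftpb and Sftpa1 stand for alveolar type 2 cells (chr6:72304360-72304609 and chr14:41131538-41131787), Ager for type 1 cells (chr17:34597600-34597849), Cyp2f2 for club cells (chr7:27119705-27119954) and Sec14l3 for ciliated cells (chr11:4064603-4064852).
Sftpb: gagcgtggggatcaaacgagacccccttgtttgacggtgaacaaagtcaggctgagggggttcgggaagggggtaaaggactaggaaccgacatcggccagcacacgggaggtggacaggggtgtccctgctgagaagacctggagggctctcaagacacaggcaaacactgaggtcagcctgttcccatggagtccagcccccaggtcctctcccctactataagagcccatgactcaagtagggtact
Sftpa1: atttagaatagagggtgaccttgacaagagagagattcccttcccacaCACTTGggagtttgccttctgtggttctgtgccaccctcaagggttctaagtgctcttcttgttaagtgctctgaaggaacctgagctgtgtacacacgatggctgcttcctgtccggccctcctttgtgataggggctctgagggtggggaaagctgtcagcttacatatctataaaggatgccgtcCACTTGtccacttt
Ager: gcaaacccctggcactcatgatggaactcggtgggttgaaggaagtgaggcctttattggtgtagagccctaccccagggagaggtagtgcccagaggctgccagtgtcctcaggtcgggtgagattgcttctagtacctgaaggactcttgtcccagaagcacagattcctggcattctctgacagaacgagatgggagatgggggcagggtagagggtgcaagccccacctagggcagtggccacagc
Cyp2f2: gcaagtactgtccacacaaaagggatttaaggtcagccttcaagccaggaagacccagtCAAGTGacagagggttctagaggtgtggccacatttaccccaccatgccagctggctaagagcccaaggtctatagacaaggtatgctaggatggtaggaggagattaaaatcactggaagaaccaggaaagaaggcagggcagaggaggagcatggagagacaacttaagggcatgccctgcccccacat
Sec14l3: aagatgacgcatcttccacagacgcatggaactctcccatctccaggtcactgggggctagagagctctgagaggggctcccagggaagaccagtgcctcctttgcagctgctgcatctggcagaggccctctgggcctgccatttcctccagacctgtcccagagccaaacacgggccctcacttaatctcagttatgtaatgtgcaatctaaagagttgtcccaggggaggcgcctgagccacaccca
Sftpc and Scgb1a1 are named only.

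Signals are log2 values after background correction and quantile normalization, in which the brightest probes lie near 14.86. Undetected probes have no single level. The Sftpc probe, undetected in the 35 younger arrays, lay at 4.38 to 5.24 there, and some undetected probes given below lie higher. Values in this low range are therefore not measured levels, and differences from them are not exact folds. A probe was kept if its detection p was under 0.01 in at least 2 of the 19 old arrays, which left 18248 of 45281 probes and 12651 genes. A probe is called higher or lower here where both arrays lie outside the range of the other 17 and the means differ by at least 1 on the log2 scale, which is 2-fold. Since the arrays were picked by a measured transcript, no test is made of them against the other 17, and all their differences are descriptions. By this rule 2849 probes were higher (15.6%) and 2759 lower (15.1%). By the brightest kept probe of each gene, 2243 genes were higher (17.7%) and 1736 lower (13.7%), and these shares are the background for the counts below. Of the kept probes, 1431 were detected in fewer than 2 of the other 17 arrays, so that they entered only through the pair, and 1291 of these are among the higher ones. The median difference over kept probes was -0.26, against which the smaller differences below should be read, and -0.42 under median scaling of the arrays. In 1157 probes both arrays detected a transcript that none of the other 17 did, and in 729 that none of the other 52 did.

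Arrays 95 and 96 detected 14083 and 14608 probes, within the 11105 to 15694 of the other old arrays. They resembled each other (SD of their difference over kept probes 0.495) more than either resembled another old array (SD 1.295 to 1.675). Among the other 17, where the SD ran from 0.341 to 0.919, 42 pairs of arrays were closer to each other than 95 and 96 were. The array numbers of old tumours form runs, and 91 to 98 is the run of the pair. Its other 6 arrays serve as a reference of nearby number. What a run stands for is not given in the sources used here. In bulk RNA, more cells of a type and more RNA per cell cannot be told apart.

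The 4 lung marker genes include Sftpc, whose difference the selection fixes. Sftpc was 14.12 and 14.41 in arrays 95 and 96, against 4.45 to 4.77 (median 4.58) in the other 17 old arrays and at most 5.24 in the 35 younger arrays. Its raw bead signal was 9231 and 13731, against at most 198 in the other old arrays, which made it the probe of rank 99 and rank 53 on its array. Scgb1a1, the secretoglobin of club cells, was 14.53 and 14.58, against 4.57 to 5.15 (median 4.87) in the other 17, none of which detected it. It was the probe of rank 33 and rank 26 by raw signal. Cyp2f2, a cytochrome P450 of club cells, was 14.10 and 14.45, against 5.22 to 6.70 (median 5.81), with detection in 3 of the other 17. Ager, the receptor that marks type 1 cells, was 12.74 and 13.30 by its brightest probe, against 5.26 to 6.87 (median 6.15), and 11 of the other 17 detected that probe. Its second probe, detected in none of the 17, was 11.96 and 12.71, against 4.60 to 5.33. No array of either reference came near the pair for any of these genes.

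**Figure D1:**
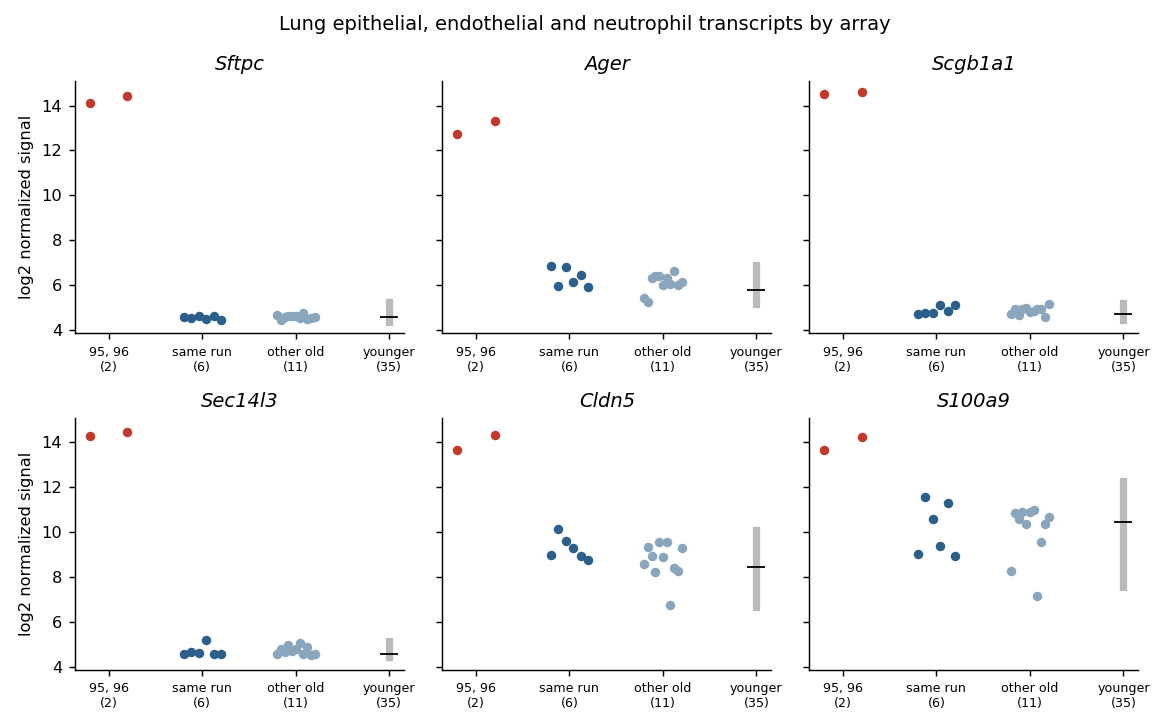
Log2 normalized signal (y axis) of 6 transcripts in old arrays 95 and 96, the 6 other old arrays of the same run of numbers, the 11 remaining old arrays (1 point per array) and the 35 younger arrays (grey bar from lowest to highest, dash at the median). Sftpc, Scgb1a1 and Sec14l3 were detected in none of the other 17 old arrays and the plotted Ager probe in 11 of them, while Cldn5 and S100a9 are measured in every old array and still lie below the pair.

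Most alveolar type 2 genes were higher, Sftpc, which chose the arrays, among them. Of 17 listed genes 16 were kept, 10 of them only through the pair, and 14 were higher and 0 lower, with a median difference of 5.56 (5.27 against the 6 arrays of the run). Sftpd, a collectin of surfactant, was 14.42 and 14.47, against 4.69 to 5.76 (median 5.07), at least 298-fold higher. Such bounds are given where a probe was detected in none of the other 17, and set the lowest detected signal in its place. Sftpb, the surfactant protein needed to form the film, was 12.31 and 12.94, against 4.53 to 5.01, at least 84.7-fold higher. Sftpa1, the other collectin, was 11.44 and 12.14, against 4.46 to 5.03. Lamp3, a protein of the lamellar bodies that store surfactant, was 7.13 and 8.72, against 4.48 to 4.88. Abca3, the lipid pump of those bodies, was 13.17 and 13.55, but the other 17 arrays also held 10.68 to 11.36 (median 11.08), so that its difference was 2.30. Chil1 and Cxcl15, secreted proteins of lung epithelium, differed by 7.51 and 6.88. Lyz1, a lysozyme, was 14.60 and 14.65, against 13.74 to 14.49, a difference of 0.39 near the top of the scale, and Etv5, a transcription factor, differed by 0.83. S100g was not kept.

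Alveolar type 1 genes were higher in 14 of 14, 8 of which were kept only through the pair, with a median of 4.54. Scnn1g, a subunit of the epithelial sodium channel, was 10.40 and 11.49, against 4.60 to 5.02. Aqp5, a water channel, was 11.16 and 11.56, against 4.74 to 6.12 (median 5.24). Pdpn, podoplanin, was present in the other tumours too, at 9.99 to 11.43 (median 10.51), and reached 12.49 and 12.93 in the pair. Emp2, a membrane protein, showed the smallest difference of the list, 1.61, with 11.92 and 12.82, against 9.95 to 11.47.

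Club cell genes had the highest median of all lists, 6.60, with 12 of 12 kept genes higher and 8 kept only through the pair. Scgb3a2, a second secretoglobin of the airway, was 12.78 and 12.88, against 4.50 to 5.06 (median 4.67), at least 97.5-fold higher. Gsta3, a glutathione transferase, was 12.28 and 12.81, against 4.47 to 6.42. Hp, haptoglobin, was 13.67 and 14.17, against 4.64 to 8.35 (median 6.57), and 12 of the other 17 detected it. Aldh1a1, a retinal dehydrogenase, was 9.36 and 9.72, against 4.36 to 4.66. Cbr2, a carbonyl reductase abundant in mouse lung, was 14.55 and 14.60, against 6.86 to 11.01 (median 9.11), so that the other tumours varied widely in it. Scgb3a1, Bpifa1 and Reg3g were not kept, and Bpifb1 and Muc5b had no probe under these names.

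Ciliated cell genes were higher in 15 of 15 kept genes, 14 of them kept only through the pair, with a median of 4.67. Sec14l3, a lipid-binding protein of ciliated cells, was 14.29 and 14.45, against 4.54 to 5.18 (median 4.64), at least 283-fold higher and 3rd among all genes. Cdhr3, a cadherin-related surface protein, was 12.09 and 12.29, against 4.46 to 5.04. Rsph1, a component of the radial spokes of the ciliary axoneme, was 11.94 and 12.03, against 4.56 to 5.48. Foxj1, the transcription factor that drives the formation of motile cilia, was low but above the other arrays, at 6.21 and 6.35, against 4.56 to 5.16. Dnah5, a dynein arm heavy chain, was 6.24 and 6.90, against 4.48 to 4.84. Tmem212 was not kept, and 6 of the 22 listed genes had no probe under their names. With no detection filter, 14 of 17 type 2, 14 of 14 type 1, 13 of 15 club and 15 of 16 ciliated genes with a probe were higher.

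Genes of basal, goblet and neuroendocrine airway cells were mostly not detected. Of 12 listed genes, all with a probe, only Calca, a peptide of neuroendocrine cells, was kept, at 6.39 and 6.70, against 5.29 to 6.99, which overlap. Krt5, Krt14, Trp63, Muc5ac and Chga, which mark these cells, were not kept. This does not show that the cells were absent. Epcam, Ehf and Spint2 of the general epithelial list and Kdr and Ecscr of the endothelial list were not kept either. Of general epithelial genes, 9 of 13 kept were higher (7 kept only through the pair), with a median of 2.13. With the processed values of the authors 6 of 13 were higher and the median was 0.82. Cldn3, a tight junction protein, was 10.38 and 10.54, against 4.48 to 4.90, and Krt19, a keratin of simple epithelia, was 9.14 and 9.76, against 4.41 to 4.81. Krt8 and Krt18, keratins that the tumours also held, overlapped: Krt18 was 10.54 and 10.02, against 9.77 to 10.65 (median 10.10).

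Lung transcription factors were higher in 10 of 13 kept genes, 5 of which were kept only through the pair, and Foxa2, Sox2, Foxp2 and Tbx5 were not kept. The median was 2.05, and 1.34 with no filter. Nkx2-1, which specifies lung epithelium, was 9.43 and 9.89, against 4.60 to 5.48 (median 5.04), at least 10.8-fold higher. Tcf21 and Tbx2, factors of lung mesenchyme, were 8.85 and 10.03, against 4.44 to 4.69, and 8.90 and 9.80, against 4.51 to 5.10. Hoxa5, Gata6 and Etv5 differed by 0.56, 0.59 and 0.83 and were called neither higher nor lower.

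Endothelial genes were higher in 18 of 18 kept genes, and none of these entered only through the pair. The median difference was 3.59, and 3.66 against the run. Cldn5, the tight junction protein of endothelium, was 13.66 and 14.34, against 6.73 to 10.13 (median 8.93). Tek, the angiopoietin receptor, was 10.85 and 10.87, against 4.87 to 6.52 (median 5.74). Icam2, an adhesion molecule, was 11.87 and 12.79, against 6.16 to 8.40. The smallest differences were those of Eng, a coreceptor for TGF-beta ligands, at 1.84, and Plvap, a protein of fenestrated endothelium, at 2.02. Of 15 lung capillary genes 10 were kept, 5 of them only through the pair, and 9 were higher, with a median of 3.94 and, with no filter, 2.61. Among them were Ace, the angiotensin-converting enzyme, at 12.76 and 12.47, against 6.06 to 8.11, and Car4, a carbonic anhydrase, at 8.58 and 9.77, against 4.54 to 5.15. The mean level over endothelial genes was 11.35 and 11.78 in the pair, 7.38 to 8.41 in the other old arrays and 7.29 to 8.76 in the younger ones.

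Connective tissue of the lung was represented as well. Of lung mesenchyme genes 13 of 15 kept were higher, and 4 of the 15 were kept only through the pair. Inmt, a methyltransferase abundant in lung, was 14.57 and 14.69 by its brightest probe, against 6.27 to 9.26 (median 8.65). Gpx3, the secreted glutathione peroxidase, was 14.01 and 14.37, against 4.61 to 9.17 (median 5.73), so that single other tumours held it at moderate levels. Limch1, an actin-binding protein, was 12.18 and 13.08, against 6.25 to 8.11. Fgf10, a growth factor of lung mesenchyme, was 7.90 and 8.15, inside the range of 7.67 to 9.99. Among smooth muscle and pericyte genes 8 of 11 kept were higher, and 4 of the 11 were kept only through the pair. Actg2 and Myh11, contractile proteins, were 10.26 and 10.17, against 4.54 to 7.09, and 8.90 and 9.00, against 4.46 to 5.28. Rgs5 and Cspg4, of pericytes, were not higher, with differences of -0.90 and -0.15.

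Tissues next to the lung were checked with their own lists. Of mesothelial genes 4 of 6 kept were higher, and 3 of the 6 were kept only through the pair. Krt19, named above as a general epithelial gene, is on this list too. Msln was called neither higher nor lower, Lrrn4 and Gpm6a were not kept, and Wt1 had no probe under this name. Upk1b and Upk3b, uroplakins of mesothelium, were 8.47 and 8.63, against 4.54 to 5.15, and 8.93 and 8.80, against 5.12 to 7.08. Bnc1, a zinc finger factor, was instead lower, at 8.32 and 6.25, against 9.41 to 10.47. Of cardiac genes 3 of 14 with a probe were kept, 1 only through the pair, and 2 were higher and 1 lower: Actc1, cardiac actin, was 9.03 and 9.23, against 4.47 to 4.62, and Myl4, the atrial light chain, 8.95 and 9.36, against 6.23 to 8.71, while Nppb, a natriuretic peptide, was lower by the rule, at 4.77 and 4.67, against 4.93 to 8.10. The defining heart genes Myh6, Nppa and Tnni3 were not kept. Skeletal muscle was called in 0 of 13 kept genes in either direction and liver in 0 of 7 higher and 1 lower. Cfd, an adipocyte serine protease, was 12.03 and 8.32, against 4.67 to 10.23, and Adipoq 7.56 and 5.28, against 4.60 to 6.19, so that both overlapped the other arrays in array 96. Of 5 kept adipocyte genes 2 were higher, Plin4 and Lipe, by 2.43 and 1.82, of 12 with a probe, and 3 of the 5 were kept only through the pair. Alas2, the erythroid enzyme of haem synthesis, was 11.90 and 11.14, against 4.62 to 9.87 (median 6.24).

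**Figure D2:**
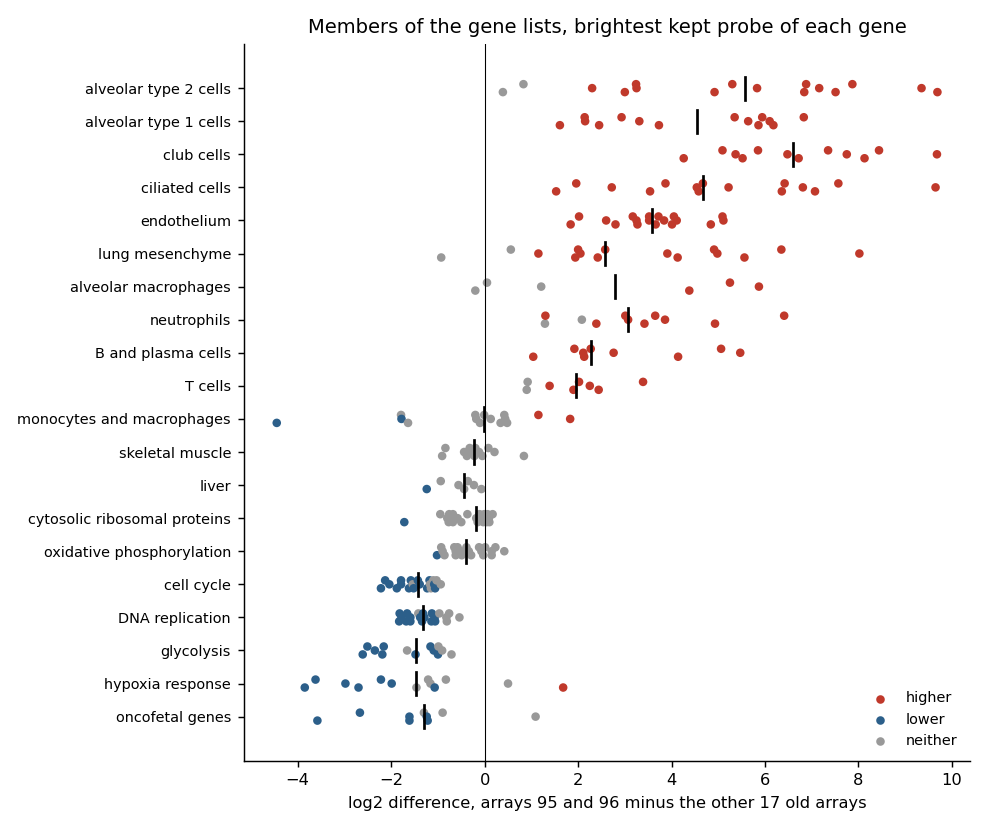
Log2 difference, mean of arrays 95 and 96 minus mean of the other 17 old arrays (x axis), of each kept member of 20 gene lists (1 point per gene, brightest kept probe, black bar at the list median). Red and blue points are called higher and lower, grey points neither; the lung cell lists lie to the right, skeletal muscle and ribosomal protein genes around 0, and the cell cycle, replication and glycolysis lists to the left.

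Leukocyte genes differed by type. Neutrophil genes were higher in 9 of 11 kept genes (4 kept only through the pair), with a median of 3.07. S100a9, a calcium-binding protein of neutrophils, was 13.65 and 14.22, against 7.16 to 11.55 (median 10.56). Ltf, lactoferrin of their granules, was 12.23 and 11.20, against 4.65 to 6.53. Retnlg, another neutrophil gene, was 11.68 and 12.39, against 4.58 to 8.89. Il1b, also made by macrophages, was 10.34 and 11.15, against 7.74 to 10.55, which overlap.

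B and plasma cell genes were higher in 9 of 9 kept genes, 7 of them kept only through the pair. Igkc, the kappa light chain constant region, was 11.33 and 12.35, against 4.82 to 9.73 (median 6.20), and Cd79b, of the B cell receptor, was 9.39 and 9.96, against 4.45 to 5.05. Ms4a1, a surface marker of B cells, was not kept. Among T cell genes 6 of 8 kept were higher, and 5 of the 8 were kept only through the pair; the median was 1.96 and, with no filter, 1.09. They included Cd3d and Cd3e, chains of the T cell receptor complex, with 8.16 and 8.49, against 4.45 to 6.21, and 7.42 and 7.53, against 4.71 to 6.07. Cd4 and Cd8a were not kept. Of 11 NK cell genes with a probe 4 were kept, and these 4 were higher, Ccl5 by 2.48 and Nkg7, of cytotoxic granules, by 1.82. The NK cell median was 1.60 over the kept genes and 0.09 with no filter. These lymphocyte counts depend on the processing: with the processed values of the authors, and likewise without background correction, 4 of 9 B and plasma cell, 2 of 8 T cell and 2 of 4 NK cell genes were higher.

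Of alveolar macrophage genes 3 of 6 kept were higher and 0 lower, of 14 with a probe, and 1 of the 6 was kept only through the pair. The median was 2.80 over the kept genes and 0.47 with no filter. Ear2, a ribonuclease of alveolar macrophages and eosinophils, was 11.10 and 11.85, against 4.83 to 6.85, and Chil3, a chitinase-like protein, was 11.55 and 12.10, against 4.56 to 8.10 (median 6.88). Mrc1, the mannose receptor, was 9.34 and 9.69, against 8.40 to 11.38 (median 9.28). Marco, Fabp1, Plet1 and Krt79 were not kept, and Siglecf and Ear1 had no probe under these names. Retnla, a secreted product of alternatively activated macrophages and lung epithelium in mice, was 13.33 and 13.13, against 4.65 to 5.74, at least 128-fold higher. General monocyte and macrophage genes were higher in 2 of 15 kept genes and lower in 2, with a median of -0.01. Arg1, arginase 1 of macrophages in tumours, was among the lowest of all genes, at 8.42 and 6.77 by its brightest probe, against 11.23 to 12.66 (median 12.08). Cd68, a lysosomal protein of macrophages, was 7.89 and 7.53, against 8.95 to 10.29. Ccr2, the chemokine receptor of monocytes, was higher, at 6.56 and 7.15, against 4.55 to 6.20.

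Antigen presentation genes were higher in 7 of 12 kept genes, 2 of which were kept only through the pair, and in 3 under median scaling. Ciita, the master regulator of MHC class II, was 7.98 and 8.03, against 4.62 to 6.92 (median 5.22), and H2-Oa, a modulator of peptide loading in B cells, was 7.83 and 8.27, against 4.50 to 5.41. Cd74, the invariant chain, was 11.88 and 12.14, inside the range of 8.85 to 12.60. Of interferon-stimulated genes 3 of 18 were higher and 0 lower, a share near the background of 17.7%: Cmpk2 differed by 1.88 and Ifit3 by 1.70. Under median scaling 1 was higher, and without array 96 there were 7.

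Among the 25 genes with the highest differences, 15 belong to the alveolar, club or ciliated lists, and the ranked probe of 18 was detected in none of the other 17 arrays. Those outside these lists were Ces3, Retnla, Inmt, Gpx3, Wfdc2, Acot1, Scgb1c1, Aox3, Prr15l and Chia1. Ces3, a carboxylesterase, was 13.91 and 14.20, against 4.43 to 5.95. Wfdc2, a secreted protein of airway epithelium, was 14.61 and 14.63, against 5.16 to 8.80 (median 7.27), with detection in 12 of the other 17.

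Among the genes with the lowest differences were a matrix protease, a chemokine and an imprinted RNA. Mmp3, the matrix protease stromelysin, had the lowest difference of all, -5.09: its ranked probe was 7.09 and 6.78, against 10.69 to 12.89 (median 12.29). By its brightest probe it was 8.82 and 9.49, against 11.93 to 13.51. Cxcl1, a neutrophil-attracting chemokine, was 8.26 and 7.59, against 9.78 to 13.17 (median 12.22). Ccl2, which attracts monocytes, was 7.38 and 5.98, against 8.95 to 10.42. Cxcl12, a chemokine of stromal cells, went the other way, with 11.18 and 11.16, against 5.73 to 8.84. Of 13 kept chemokine and cytokine genes 4 were lower, 1 higher and 8 neither, beside 13.7% lower over all genes. H19, an imprinted noncoding RNA of embryonic tissues, was 10.10 and 7.57 by its brightest probe, against 11.33 to 13.60 (median 12.52). Prl2c3 and Prl2c2, of the proliferin family whose members are close copies of each other, were 6.07 and 5.13, against 8.01 to 11.27, and 7.48 and 5.38, against 9.27 to 11.31, and probes for them may read each other's transcripts. Lum, lumican of the matrix, was 10.62 and 6.47, against 11.22 to 13.31 (median 12.66). Of the 2759 lower probes 1635 were still detected in both arrays of the pair and 821 in neither.

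Cell cycle genes were lower in 15 of 21 kept genes and higher in 0, with a median of -1.43, beside 13.7% lower over all genes. Ccnb1, mitotic cyclin B1, was 8.16 and 6.22, against 8.99 to 9.93 (median 9.41). Top2a, the topoisomerase of dividing cells, was 9.36 and 7.76, against 9.67 to 11.17, and Aurkb, a mitotic kinase, 7.80 and 6.27, against 8.11 to 9.52. Mki67, the proliferation marker, was 9.45 and 8.52, against 9.53 to 10.29, a difference of -0.94 that missed the 2-fold minimum. The mean level over the list was 8.97 and 7.73 in the pair, 9.64 to 10.19 in the other old arrays and 9.53 to 10.45 in the younger ones. DNA replication genes were lower in 15 of 21, among them Cdc6, a loading factor of the replication helicase, at 6.58 and 5.92, against 7.38 to 8.64, and Mcm3, a subunit of that helicase, at 7.37 and 6.75, against 8.25 to 9.39. Without array 96, 7 of the cell cycle and 8 of the DNA replication genes were lower. Without array 95, 21 and 18 were.

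Glycolysis genes were lower in 9 of 13 kept genes and higher in 0, with a median of -1.48. Slc2a1, the glucose transporter GLUT1, was 10.69 and 10.34, against 12.38 to 13.59 (median 13.10), and Pgam1, phosphoglycerate mutase, was 8.76 and 7.70, against 10.19 to 11.08. Gapdh, often used as a constant gene, was 12.92 and 12.48, against 13.45 to 13.96. Hypoxia response genes were lower in 7 of 13 and higher in 1. Egln3, an oxygen-sensing hydroxylase, was 8.92 and 6.73, against 10.77 to 11.87, and Car9, a carbonic anhydrase, was 5.14 and 5.13, against 5.84 to 9.91 (median 8.22). The member higher was Vegfa, the vascular growth factor, at 11.16 and 11.94, against 8.60 to 10.62 (median 9.84). Oncofetal genes were lower in 6 of 9, and in 3 with the processed values of the authors: Igf2bp3, an RNA-binding protein of embryonic tissue, was 7.91 and 6.12, against 9.16 to 10.26. Igf2, the growth factor beside H19 in the genome, was 10.10 and 10.42, against 8.27 to 10.32, and overlapped.

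**Figure D3:**
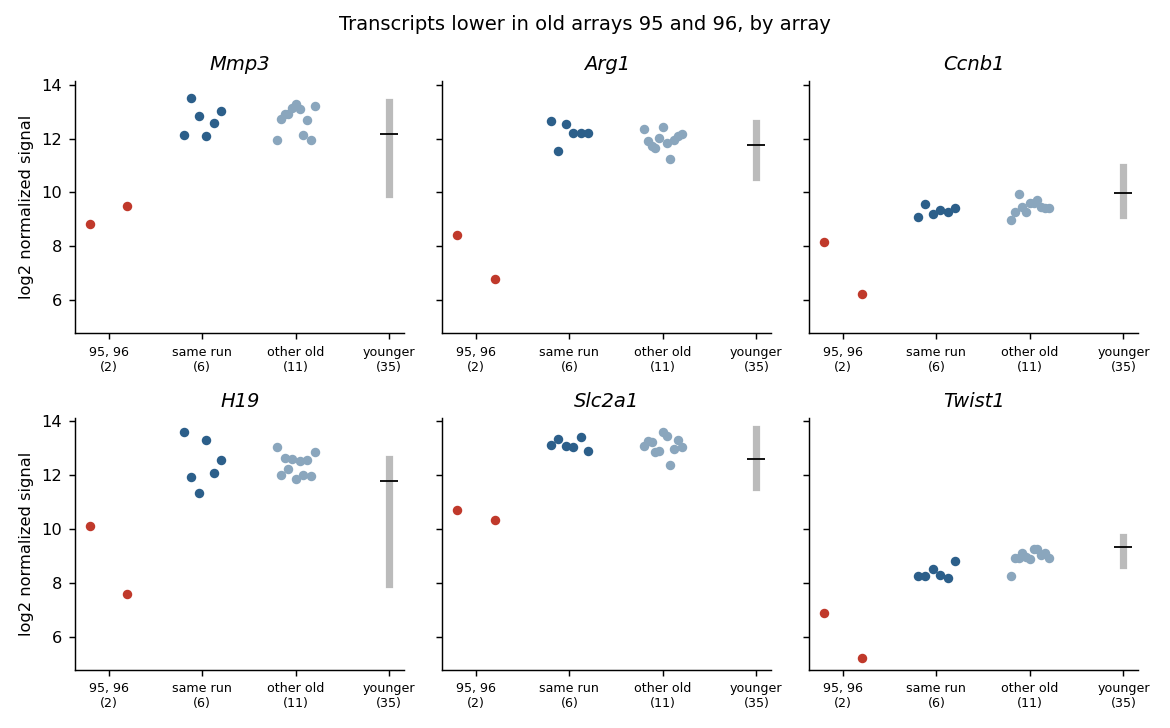
Log2 normalized signal (y axis, not starting at 0) of 6 transcripts in old arrays 95 and 96, the 6 other old arrays of the same run, the 11 remaining old arrays (1 point per array) and the 35 younger arrays (grey bar from lowest to highest, dash at the median), by the brightest probe of each gene. Both arrays lie below every other old array in each panel, and array 96 below array 95 in all panels but that of Mmp3.

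Matrix and mesenchymal genes were in part lower, and the rest were not called. Of matrix genes 8 of 20 kept were lower and 0 higher. Against the arrays of the run alone 9 were lower and 4 higher, and without array 95 these were 10 and 2. Fn1, fibronectin, was 11.06 and 9.41 by its brightest probe, against 11.92 to 14.29 (median 13.85), a difference of -3.11 and of -2.23 against the run. Its ranked probe gave -4.77, and -3.41 against the run, whose arrays were lower than the remaining old arrays in this probe. Thbs2, thrombospondin 2, was 11.17 and 8.52, against 12.31 to 13.23. Lox and Mmp2, a collagen crosslinker and a matrix protease, were higher by 3.07 and 2.51 in the mean but overlapped the other tumours, which reached 10.54 and 11.25. Twist1 and Twist2, transcription factors of mesenchymal cells, were 6.88 and 5.20, against 8.19 to 9.27, and 9.00 and 7.47, against 10.43 to 11.67. Zeb2, a factor of the same kind, differed by 0.97 and was not called, and neither were Snai1, Snai2 and Zeb1. Of mesenchymal and invasion genes 7 of 17 kept were lower, 0 higher and 10 neither.

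Srm, spermidine synthase, and Myc, the growth-promoting factor, were among 8 of 17 ribosome biogenesis genes and Myc targets that were lower; without array 96 the count was 5. Myc was 6.31 and 5.05, against 7.01 to 10.47 (median 9.63), a difference of -3.36 and of -2.27 against the run. Several of the 25 lowest genes also depended on the probe: Rtraf differed by -3.76 in its ranked probe and by -0.17 in its brightest, and Asah1 by -3.74 and -0.55. For 23 of the 25 the brightest probe was lower too. Over all lower probes the median difference was -1.37 against the run and -1.60 against the old arrays outside it. In 71.1% of the lower probes the mean of the run lay under that of the arrays outside it. That share was not taken over all kept probes, so it cannot be read as a trait of the lower probes.

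Housekeeping lists lay near the median of -0.26 over kept probes. Of cytosolic ribosomal protein genes 1 of 23 was lower (Rplp0, by -1.72) with a median of -0.18, which became -0.87 under median scaling. Of oxidative phosphorylation genes 1 of 21 was lower, with a median of -0.39. Immediate early genes, which respond within minutes to stimuli, were higher in 5 of 15 with a median of 0.54, among them Jund by 1.40 and Dusp1, a phosphatase, by 1.36. Under median scaling 0 of these genes were higher and 1 lower, and against all other arrays 1 was higher. Heat shock and stress genes were higher in 2 of 17, Hspb1, a small chaperone, at 9.67 and 10.48, against 5.06 to 8.50.

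Array 96 departed farther than array 95 in most of the called probes, but not in every gene list. Relative to the other 17, the higher probes had a median of 2.06 in array 95 and 2.37 in array 96, and 78.2% were higher in 96 than in 95, against 50.4% of all kept probes. The lower probes had medians of -1.36 and -1.66, and 69.8% were lower in 96 than in 95. Array 96 was above array 95 in 15 of 16 alveolar type 2 genes, 14 of 14 type 1, 12 of 12 club and 13 of 15 ciliated genes, and in 0 of 21 cell cycle and 0 of 21 DNA replication genes. Other lists were mixed or went the other way. Array 96 was above 95 in 6 of 13 hypoxia response and 9 of 17 mesenchymal and invasion genes. The median of array 95 minus 96 was 0.80 in adipocyte, 0.38 in erythroid and 0.11 in mesothelial genes. The genes among the higher ones that departed most towards array 95 were Slc6a2, a noradrenaline transporter, at 10.90 and 7.54 in arrays 95 and 96, Lama1, a laminin chain, at 8.33 and 6.60, and Gp5, a platelet glycoprotein, at 8.86 and 7.61. Those that departed most towards array 96 were Lamp3, at 7.04 and 9.01 by its ranked probe, Foxf1, a factor of lung mesenchyme and endothelium, at 6.87 and 8.56, and Slc35g2, at 6.17 and 7.85. 

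**Figure D4:**
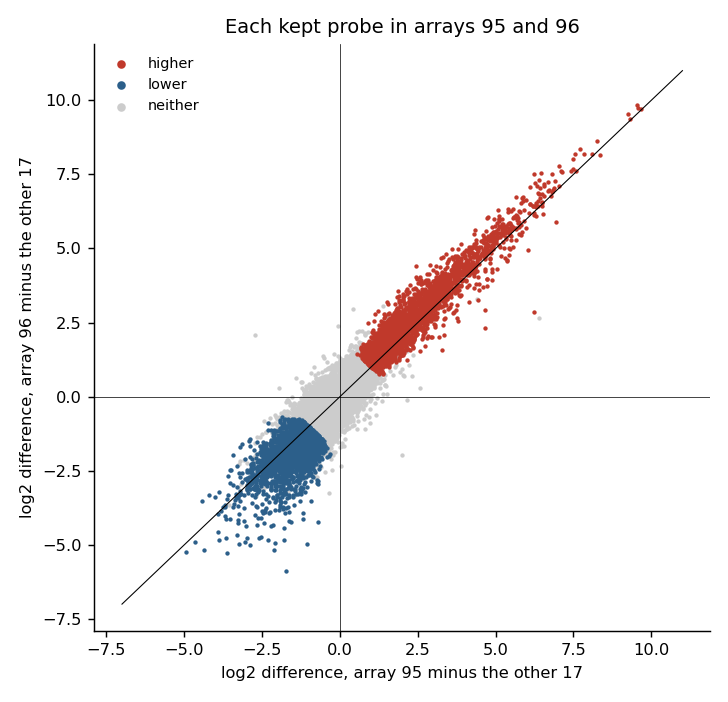
Log2 difference from the mean of the other 17 old arrays for array 95 (x axis) and array 96 (y axis), 1 point per kept probe, with a line of equal difference. The 2849 higher probes (red) lie mostly above the line and the 2759 lower probes (blue) mostly below it, so that array 96 is farther from the other old arrays on both sides.

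The age of the host is the comparison the study was built for, and the pair holds 2 of the 19 old arrays in it. In limma with age group as the only factor, 17668 probes detected in at least 7 arrays were fitted, once with all 54 arrays and once without the pair, and called at a Benjamini-Hochberg adjusted p under 0.05. Nothing says whether mice of 1 group shared a cage or day, so the p measure the spread between these tumours. The 3 comparisons share the old arrays. Old minus adolescent gave 2864 probes higher and 4099 lower with the pair, and 3148 and 3661 without it. With median scaling of the arrays the split with the pair was 522 higher and 5815 lower. Of the calls under quantile normalization, 5788 were called with the same sign both times, 1175 were called only with the pair and 1021 only without it. For old minus young adult 695 calls were made only with the pair and 1086 only without it, and for old minus middle-aged 714 and 949. The median SE of a difference in old minus adolescent was 0.123 with the pair and 0.115 without it. Lung transcripts and low cell cycle transcripts go together in these 2 arrays, and their separate part in the age calls was not tested. The run of array numbers is shared with 6 other old arrays, in which Sftpc was 4.47 to 4.61. Against those 6 alone, 2842 probes were higher in the pair and 2854 lower. The part of the run in the age calls was not tested either.

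By the brightest probe of each gene, 19.2% of genes were called higher and 20.0% lower in old minus adolescent with the pair, and 20.7% and 18.6% without it. Higher calls took 23.6% (with) and 27.1% (without) in old minus young adult and 22.5% and 25.3% in old minus middle-aged. Genes detected only in the pair did not enter this fit, because 2 arrays of 54 cannot pass a filter of 7. The fit held 4 club, 3 ciliated, 6 type 1, 8 type 2 and 18 endothelial genes. The genes kept for the pair were 12, 15, 14, 16 and 18. Endothelial genes had a median difference of 0.24 with the pair and -0.17 without it. Of these 18 genes 1 rose and 1 fell with the pair, while 1 rose and 3 fell without it. Sox18, a transcription factor of endothelium, differed by -0.24 (SE 0.259, adjusted p = 0.474) with the pair and fell by 0.61 (SE 0.155, adjusted p = 0.00158) without it. Chil1, of alveolar type 2 and other epithelial cells, differed by 0.14 (SE 0.488, adjusted p = 0.845) with the pair and fell by 0.66 (SE 0.200, adjusted p = 0.00804) without it. Ager rose both times, by 1.16 (SE 0.426, adjusted p = 0.0268) with the pair and by 0.44 (SE 0.125, adjusted p = 0.00486) without it, so that the other 17 old tumours also differed from adolescent ones.

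Some calls on immune and growth genes also differed between the fits. Of 10 MHC class II genes 3 rose with the pair and 0 without it: Ciita by 0.64 (SE 0.237, adjusted p = 0.0280) and, without the pair, a difference of 0.36 (SE 0.184, adjusted p = 0.115), H2-Aa by 0.71 and H2-Ab1 by 0.79 with the pair. Without it H2-Aa differed by 0.52 and H2-Ab1 by 0.57, so that the direction stayed. Nkg7, of cytotoxic cells, rose by 0.62 (SE 0.210, adjusted p = 0.0163) and differed by 0.43 (adjusted p = 0.0649) without the pair. Among DNA replication genes 9 of 21 fell with the pair and 5 without it. Cdc6 fell by 0.44 (SE 0.150, adjusted p = 0.0165) and differed by -0.25 (adjusted p = 0.0537) without it. Of 21 cell cycle genes 14 fell with the pair and 13 without it, with Tpx2, a spindle assembly factor, called only with it: it fell by 0.51 (adjusted p = 0.0167) with the pair and differed by -0.36 (adjusted p = 0.0605) without it. Interferon-stimulated genes had 13 of 18 higher both with and without the pair, and 12 of these were the same genes. In the other direction, Mmp3 differed by 0.36 (adjusted p = 0.378) with the pair and rose by 0.74 (SE 0.251, adjusted p = 0.0170) without it, Arg1 differed by -0.07 (adjusted p = 0.861) and rose by 0.39 (adjusted p = 0.0175), and Igf2bp3 differed by 0.36 (adjusted p = 0.142) and rose by 0.64 (SE 0.106) without the pair.

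**Figure D5:**
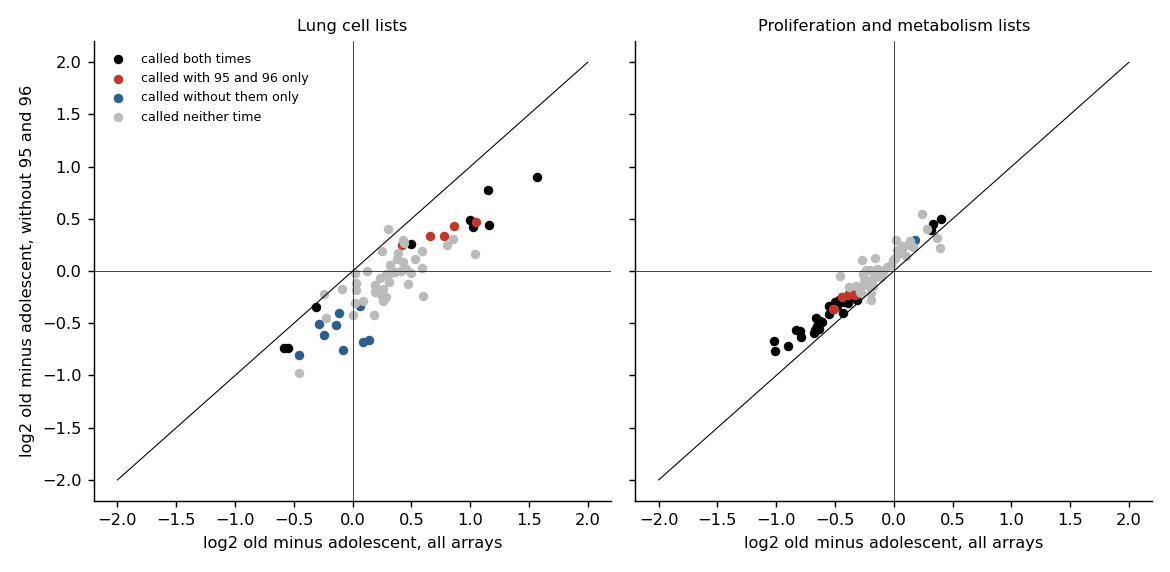
Log2 difference, old minus adolescent, from limma with all 54 arrays (x axis) and without old arrays 95 and 96 (y axis) for the members of 8 lung cell lists (left) and 5 proliferation and metabolism lists (right), 1 point per gene, with a line of equal difference. Ager, at 1.16 with the pair and 0.44 without it, lies below the line like most lung genes, and Cdc6, at -0.44 and -0.25, above it like most proliferation genes, and coloured points are genes called in only 1 of the fits.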

How the data were processed

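Per the file headers, the deposited raw table gives every probe's mean bead intensity on every array, with no background or scaling step, next to the detection p-value of that probe against the array's negative controls. Per the design text, the deposited processed intensity values were corrected through housekeeping genes and quantile normalized by the authors. Every processed column could be matched to a single raw array by rank correlation (0.9997 or more). All columns of per-array values were used.

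Raw signals were processed here with neqc (limma 3.58.1, R 4.3.3, offset 16), which infers background from the detection p, and taken to log2. Symbols were updated by name with the RefSeq table: 27740 were current, 8055 replaced and 9486 kept. Arrays 95 and 96 were compared with the other old arrays without a test; ages were compared with limma and Benjamini-Hochberg adjustment. Arrays have no counting depth, so their number limits the precision. The members, the 42 gene lists and the naming rule were chosen with earlier results of these data known. Named are the 4 marker genes, the 25 highest and 25 lowest genes, up to 3 highest and 3 lowest members of each list, the extremes of array 95 minus 96, and list members whose age call depends on the pair; other list members named were chosen after their values were seen. The design text counts 20 adolescent and 20 old tumours and 10 of each other age; the rest are not analysed here. The procedures were tested on simulated data. Replicate numbers do not pair tumours across ages: of 59 pairs with the same number, 13 had deviations that correlated above 0.1 (range -0.304 to 0.423). A few list members are not reported here.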

Additional observations from a re-analysis of the deposited data

Results flagged for a closer look

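Sftpc in 1 young adult array, at 5.24 on the log2 scale, stood apart from the other young adult arrays by Dixon's test of a gap in a group of 10; chance flags about 1 group in 20. Its detection p was above 0.01, so the probe was not detected there.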

How the results depend on the processing

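Counts of 2849 higher and 2759 lower probes for arrays 95 and 96 changed by more than 1.5 times under these settings: 1842 and 1281 without background correction, 1809 and 1244 with the processed values of the authors, 1232 lower with a 3-fold minimum and 4457 lower with no minimum. Leaving out 1 array gave 2809 to 3182 higher and 2823 to 3535 lower. The size of the lung differences depended on the background step. With the processed values of the authors the list median was 4.73 for club, 4.20 for type 2, 3.14 for type 1 and 3.04 for ciliated genes. In that setting 13 of 14 type 1 and 13 of 15 ciliated genes were higher. Of 369 list medians under the alternatives 240 moved by less than 1 SD of the other 17 arrays, and 129 by more; of 2511 values of named probes these were 1868 and 643. The sign changed in 7 of the list medians and 47 of the probe values. In 0 of them was this a probe called higher or lower, or a list whose median level in both arrays lay on 1 side of the other 17. Skeletal muscle, at -0.22, was 0.32 without array 95, and monocytes and macrophages, at -0.01, were 0.24 against the run and 0.13 without array 95. In the age comparisons, without the detection filter 15285 probes were called for old minus adolescent, 17532 for young adult and 15888 for middle-aged, against 6963, 7931 and 7564. Leaving out 1 array of the pair gave 6557 to 6791, 7820 to 8031 and 7435 to 7646. Under median scaling the calls split into 522 higher and 5815 lower, 583 and 7118, and 325 and 10918. With a replicate block for the sample numbers, which do not pair tumours, 7086, 9073 and 9130 were called, and 5 of 54 arrays matched their own number best. All other planned settings kept the age counts within 1.5 times. Each age has its own runs of array numbers, so run and age cannot be told apart.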
